A study of Vitis vinifera with 3 samples.

Results

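2 families of short sequence tags were examined in libraries from grapevine berries, which the study describes as small RNA libraries. The study names ‘Wink’ as the cultivar of its plant material. A tag is a distinct read sequence listed with the number of reads that carried it. Family 1 held every tag that shared at least 13 consecutive nucleotides (nt) with the most read 15 nt tag at 45 days after flowering (DAF). Family 2 held every remaining tag that shared at least 13 consecutive nt with the most read 16 nt tag at 45 DAF that lay outside family 1 and did not match the 5′-end of a listed known miRNA. Those 2 tags are called the seed tags here. Of the 41342 distinct tags in the 3 libraries, 99 belonged to family 1 and 78 to family 2. The seed tags were chosen by their read counts at 45 DAF and the families for their share of the reads at 90 DAF, so the family totals are given as a description and no test was made on them.

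The libraries came from young berries (YB) at 5 DAF, stone-hardening berries (SB) at 45 DAF and mature berries (MB) at 90 DAF, with 1 library per stage. The study describes extraction of total RNA by a modified CTAB method for berries of each stage, and no treatment is named for the libraries. It refers to the YB and MB libraries as coming from other work of its authors. The cultivar is named for the SB library and not separately for the YB and MB libraries. Whether those libraries were prepared and sequenced together with the SB library is not stated. The YB, SB and MB lists held 39791, 33228 and 75960 reads, and no tag was longer than 17 nt. With 1 library per stage a difference between stages has no replicate check, and stage, library preparation and sequencing run cannot be told apart. The intervals below are exact 95% intervals for counting error only.

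In plants, microRNAs (miRNAs) and small interfering RNAs are cut from longer precursors by Dicer-like enzymes and guide Argonaute proteins to matching transcripts. A small RNA library also takes in pieces of longer, abundant RNAs, and reads from such pieces often overlap, sharing a start or an end and differing by a few bases at the other. The grape berry grows by cell division and expansion after flowering, pauses while the seed coat hardens, and then softens and accumulates sugar and pigment as it ripens.

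The main forms of family 1 are shown because they differ only at their ends, and the results turn on these ends. Each is written 5′ to 3′ in the DNA letters of the deposited lists, with capitals for the longest run shared with the seed tag. Names give the first base and the length.
Seed tag, G-start 15 nt: GGGGGACGGACTGGG
C-start 16 nt: cGGGGGACGGACTGGG
G-start 14 nt: GGGGGACGGACTGG
C-start 17 nt: cGGGGGACGGACTGGGa
C-start 15 nt: cGGGGGACGGACTGG
G-start 16 nt: GGGGGACGGACTGGGa
G-start 17 nt: GGGGGACGGACTGGGaa
C-start 14 nt: cGGGGGACGGACTG
CC-start 17 nt: ccGGGGGACGGACTGGG
G-start 13 nt: GGGGGACGGACTG

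The main forms of family 2 follow the same layout, and 3 pairs of them likewise differ by a leading C.
Seed tag, G-start 16 nt: GCGGCGACGTGGGCGG
C-start 17 nt: cGCGGCGACGTGGGCGG
G-start 15 nt: GCGGCGACGTGGGCG
G-start 17 nt: GCGGCGACGTGGGCGGt
G-start 14 nt: GCGGCGACGTGGGC
Inner C-start 15 nt: CGGCGACGTGGGCGG
C-start 16 nt: cGCGGCGACGTGGGCG
Inner G-start 14 nt: GGCGACGTGGGCGG
TC-start 17 nt: tcGCGGCGACGTGGGCG
G-start 13 nt: GCGGCGACGTGGG

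The YB, SB and MB libraries held 5345, 4542 and 35129 reads of family 1. Its share of the listed reads was 13.4% (13.1 to 13.8) at YB, 13.7% (13.3 to 14.04) at SB and 46.2% (45.9 to 46.6) at MB. YB and SB were alike within counting error, with a ratio of shares of 0.983 (0.944 to 1.02), and MB lay apart from both. The MB share was 3.38 times that of SB (3.28 to 3.49) and 3.44 times that of YB (3.35 to 3.54).

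For family 2 the corresponding counts were 1405, 973 and 8287 reads, which were 3.53% (3.35 to 3.72), 2.93% (2.75 to 3.12) and 10.9% (10.7 to 11.1) of the listed reads. Here too MB stood above the others, by 3.73 times over SB (3.49 to 3.99) and 3.09 times over YB (2.92 to 3.27). Family 2 had a higher share at YB than at SB beyond counting error, with a ratio of 1.21 (1.11 to 1.31). Reads of family 1 outnumbered those of family 2 by 3.80 to 1 at YB (3.59 to 4.04), 4.67 to 1 at SB (4.35 to 5.01) and 4.24 to 1 at MB (4.14 to 4.34). The balance between the families therefore moved far less than their joint share, which was 16.96% at YB, 16.6% at SB and 57.2% at MB.

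The rest of the lists differed little in size, with 33041, 27713 and 32544 reads outside both families. Scaled to the clean reads of each library, family 1 stood at 529, 396 and 3287 reads per 1000000 at YB, SB and MB, and family 2 at 139, 84.9 and 775. On that scale the MB/SB ratio was 8.29 for family 1 and 9.13 for family 2. The MB/YB ratio was 6.21 for family 1 and 5.57 for family 2. MB was the highest library on every scale tried, while the size of the ratio depended on the total used.

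A few tags held most reads of each family. The most read pair of tags made up 77.3%, 77.0% and 78.9% of family 1 at YB, SB and MB, and 76.0%, 73.4% and 81.2% of family 2. Tags without any base off the family consensus held 99.2% of family 1 reads in each library, and between 98.7% and 98.9% of family 2 reads. The 13 nt rule keeps out most tags with an internal mismatch, so these shares are largely set by it. The larger number of distinct tags at MB, 88 in family 1 against 40 at YB and 41 at SB, and 68 in family 2 against 33 and 28, thus came with few reads. At MB, 33 tags of family 1 and 31 of family 2 were read once.

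Within family 1 the leading form changed between the libraries. The seed tag had 2741, 2086 and 11666 reads in the YB, SB and MB libraries, and was the most read of all tags at YB and SB. The C-start 16 nt tag, which is the seed tag with a C before it, had 1389, 1412 and 16060 reads, and was the most read tag at MB. It took 3.49% of the listed reads at YB, 4.25% at SB and 21.1% (20.9 to 21.4) at MB. Its MB/SB ratio was 4.98 (4.71 to 5.26), against 2.45 (2.33 to 2.56) for the seed tag, so the intervals of these forms did not overlap.

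The other abundant forms of family 1 fell on either side of the seed tag in this ratio. The G-start 14 nt tag, which lacks the last G of the seed tag, had 179, 158 and 2248 reads at YB, SB and MB, an MB/SB ratio of 6.22 (5.29 to 7.36). The C-start 15 nt tag, which lacks the same G, had 93, 172 and 2012 reads, a ratio of 5.12 (4.38 to 6.01). Forms that stop before the end of the seed tag were thus among those most enriched at MB. The C-start 14 nt tag, with 24, 6 and 157 reads, had the largest MB/SB ratio of the forms shown at 11.4. Its interval of 5.14 to 31.7 was wide because SB held 6 reads. The CC-start 17 nt tag, with 12, 8 and 126 reads, came next at 6.89 (3.39 to 16.3). Over YB the order differed. The C-start 15 nt tag had the largest MB/YB ratio of the forms shown, 11.3 (9.20 to 14.1), and the C-start 14 nt tag had 3.43 (2.22 to 5.51). The G-start 13 nt tag had 13, 7 and 56 reads. All of these forms were low at YB and SB and high at MB.

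Among the tags of family 1 with at least 50 reads over the libraries, the forms that run past the end of the seed tag into A had the smallest MB/SB ratios. The C-start 17 nt tag had 451, 378 and 1514 reads at YB, SB and MB and a ratio of 1.75 (1.56 to 1.97). The G-start 16 nt tag had 296, 203 and 716 reads and a ratio of 1.54 (1.32 to 1.81). The G-start 17 nt tag had 88, 61 and 202 reads and a ratio of 1.45 (1.08 to 1.96). Each of these intervals lay below that of the seed tag.

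The order of forms in family 2 followed another pattern. The seed tag had 813, 550 and 4438 reads at YB, SB and MB, and an MB/SB ratio of 3.53 (3.23 to 3.86). The C-start 17 nt tag had 255, 164 and 2290 reads and the largest ratio of the forms shown, 6.11 (5.21 to 7.20). It was the only form of the family whose interval lay wholly above that of the seed tag among the tags shown. The G-start 17 nt tag, which runs 1 base past the seed tag into T, had 37, 15 and 181 reads and a ratio of 5.28 (3.12 to 9.63). The C-start 16 nt tag had 18, 9 and 79 reads and a ratio of 3.84 (1.92 to 8.71).

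In family 1 the G-start 14 nt form had a larger MB/SB ratio than its seed tag. Among the tags of family 2 with at least 50 reads summed, the G-start forms with a shorter 3′ end had the smallest MB/SB ratios. The G-start 14 nt tag had 14, 35 and 153 reads and an MB/SB ratio of 1.91 (1.32 to 2.85). The G-start 15 nt tag had 180, 144 and 799 reads and a ratio of 2.43 (2.03 to 2.92). Both intervals lay below that of the seed tag of family 2. Over YB this order did not hold. The MB/YB ratio was 5.72 (3.31 to 10.7) for the G-start 14 nt tag and 2.33 (1.98 to 2.75) for the G-start 15 nt tag. For the seed tag of family 2 it was 2.86 (2.65 to 3.09). The inner G-start 14 nt tag had 9, 7 and 45 reads, with a ratio of 2.81 (1.26 to 7.39), and the inner C-start 15 nt tag had 18, 17 and 129 reads, with a ratio of 3.32 (1.99 to 5.87). The last forms were rare, with 8, 4 and 22 reads for the TC-start 17 nt tag and 12, 3 and 8 for the G-start 13 nt tag. The G-start 13 nt tag was the form shown that did not have its largest count at MB.

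The 5′ starts of each family were read as positions relative to the first base of the seed tag. In family 1, 62.5% of reads at YB (61.2 to 63.8) and 55.7% at SB (54.2 to 57.1) began at the seed tag's start, against 42.7% at MB (42.2 to 43.2). These reads include forms that stop before the end of the seed tag. Reads that began 1 base upstream, with the C, made up 36.9% at YB (35.6 to 38.2), 43.7% at SB (42.3 to 45.2) and 56.7% in MB (56.2 to 57.2). The main start of family 1 was therefore the seed tag's G in the younger berries and the C before it at MB. Without the C-start 16 nt tag, 20.2% of the remaining reads at MB began with that C. Leaving out this tag and keeping the seed tag must lower the C-start share, so nothing is read from it about the change. Other starts were rare, and the start 2 bases upstream held 0.461% at MB.

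Family 2 kept its main start in each library. Reads that began at its seed tag's start made up 76.2% at YB (73.8 to 78.4), 77.7% at SB (74.9 to 80.3) and 68.1% in MB (67.1 to 69.1). Reads that began with the C before it made up 19.9% (17.8 to 22.0), 18.3% (15.9 to 20.9) and 29.1% (28.1 to 30.1). The C-start reads were thus the minority in every library, with a larger share at MB than at YB or SB beyond counting error.

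Pairs of tags that share a 3′ end and differ only by the leading C separate the start from the end. At the seed tag's own end, the C-start tag held 33.6% of the pair in family 1 at YB (32.2 to 35.1), 40.4% at SB (38.7 to 42.0) and 57.9% in MB (57.3 to 58.5). At the end 1 base shorter the C-start tag held 34.2% at YB (28.6 to 40.2), 52.1% at SB (46.6 to 57.6) and 47.2% in MB (45.7 to 48.7). At the end 1 base longer it held 60.4% at YB (56.8 to 63.9), 65.1% at SB (61.0 to 68.9) and 67.9% in MB (65.9 to 69.8). MB stood above YB at all 3 ends, but above SB beyond counting error only at the seed tag's own end. At the end 2 bases shorter the SB pair held 13 reads, too few for its interval to separate it from the others.

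In family 2 the C-start tag held 23.9% of the pair at the seed tag's own end at YB (21.3 to 26.6), 23.0% at SB (19.9 to 26.2) and 34.0% in MB (32.9 to 35.2). At the end 1 base shorter it held 9.09%, 5.88% and 8.998% in the YB, SB and MB libraries, with overlapping intervals. The gain of the C-start form at MB over SB was thus 17.6 percentage points in family 1 and 11.1 in family 2 at the ends of the seed tags. Pairs outside the families give the setting for these gains. Of 49 pairs of tags elsewhere in the lists that differed by 1 leading base and held at least 20 reads in each library, the longer tag gained at MB over SB in 32 and lost in 16, with a median of 1.05 points and a range of -26.6 to 17.8. Some of those pairs share a tag.

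The 3′ ends were concentrated at the end of the seed tag in both families. In family 1 that end held 78.3% of reads at YB (77.2 to 79.4), 77.8% at SB (76.6 to 79.0) and 80.0% in MB (79.6 to 80.4). Around it, the reads of family 1 moved to shorter forms at MB. The end 1 base shorter held 5.18% at YB (4.60 to 5.81), 7.42% at SB (6.67 to 8.22) and 12.3% in MB (11.97 to 12.7). The end 1 base longer held 14.1% at YB (13.2 to 15.05), 12.99% at SB (12.03 to 14.002) and 6.43% in MB (6.18 to 6.70). The loss of the longer end was seen at either start. Of C-start reads ending at the seed tag's end or 1 base beyond, the longer form held 24.5% at YB, 21.1% at SB and 8.62% at MB, and of G-start reads 9.75%, 8.87% and 5.78%. The gain of the shorter end over SB was seen in G-start reads. Of G-start reads ending at the seed tag's end or 1 base before it, those at the seed tag's end held 93.9% at YB (92.9 to 94.7), 92.96% at SB (91.8 to 93.98) and 83.8% in MB (83.2 to 84.5). Of C-start reads they held 93.7% at YB (92.4 to 94.9), 89.1% at SB (87.5 to 90.6) and 88.9% in MB (88.4 to 89.3), so that SB and MB overlapped.

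In family 2 the seed tag's end held 78.6% of reads at YB (76.3 to 80.7), 76.5% at SB (73.7 to 79.1) and 84.3% in MB (83.5 to 85.1). The end 1 base shorter held 15.7% at YB (13.8 to 17.7), 16.9% at SB (14.6 to 19.4) and 11.2% in MB (10.6 to 11.9). The share of the shorter end was thus lower at MB in family 2 and higher in family 1. Split by start, the fall in family 2 was less clear. Of G-start reads ending at the seed tag's end or 1 base before it, those at the seed tag's end held 81.9% at YB (79.3 to 84.2), 79.3% at SB (76.0 to 82.2) and 84.7% in MB (83.7 to 85.7). MB and YB overlapped there. Of C-start reads they held 93.4% at YB (89.8 to 96.0), 94.8% at SB (90.4 to 97.6) and 96.7% in MB (95.9 to 97.4), with overlapping intervals. The end 1 base longer held 2.99%, 2.06% and 2.29%, with overlapping intervals. Because no listed tag exceeds 17 nt, a C-start read of family 2 that ran past the seed tag's end could not appear here, and neither could a C-start read of family 1 that ran 2 bases past it.

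Another group of tags overlaps family 1 from the upstream side and had the opposite profile across the libraries. The most read of them are shown with the bases shared with the seed tag of family 1 in capitals, since they hold the C before the seed tag and the bases upstream of it.
Upstream 15 nt: gccggccGGGGGACG
Upstream 16 nt: gccggccGGGGGACGG
Upstream 17 nt: gccggccGGGGGACGGA
Upstream 14 nt: gccggccGGGGGAC

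The upstream tags shared too few bases with the seed tag to be members, and the group was described after its values had been seen. Its 38 tags summed to 869, 217 and 127 reads in the YB, SB and MB lists, or 2.18%, 0.653% and 0.167% of the listed reads. The MB/SB ratio was 0.256 (0.204 to 0.320) and the MB/YB ratio 0.0766 (0.0630 to 0.0923). Over the reads outside both families the shares were 2.63%, 0.783% and 0.390%, so the upstream tags were lowest at MB on this scale as well. The falling profile was not particular to them. Another 13 tags outside family 1 lay wholly within the stretch that its forms cover. They had 77, 19 and 12 reads, with an MB/SB ratio of 0.276 (0.122 to 0.599) and an MB/YB ratio of 0.0816 (0.0404 to 0.151).

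A fixed start accounted for most of the upstream reads. The 17 tags that began 7 bases before the seed tag held 786 of the 869 reads at YB, 187 of 217 at SB and 112 of 127 at MB. The upstream 15 nt tag had 319, 94 and 78 reads at YB, SB and MB, the 16 nt tag 170, 28 and 15, the 17 nt tag 143, 32 and 7, and the 14 nt tag 120, 24 and 2. In all 4, YB had the most reads and MB the fewest. A read from that start that reached the end of the seed tag would be 22 nt long and so above the longest tag in the lists. Such reads were not analysed here.

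Tags that overlap family 1 on the downstream side were few. They numbered 11, with 12, 24 and 76 reads in the same order of libraries. Their MB/SB ratio of 1.39 (0.865 to 2.29) spanned equality, while their MB/YB ratio was 3.32 (1.79 to 6.70). Tags that overlap family 2 on the upstream side numbered 16, with 5, 12 and 34 reads. For these the MB/SB ratio was 1.24 (0.626 to 2.63) and the MB/YB ratio 3.56 (1.39 to 11.7). Neither group came near the reads of the families themselves.

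Few reads lay directly on either side of the limit of 13 shared nt. The upstream tags shown above share shorter runs with the seed tag and are not covered by this comparison. Tags with a shared run of 9 nt with the seed tag of family 1 had 230, 82 and 220 reads at YB, SB and MB. Family 1 members with a shared run of exactly 13 nt were 40 tags with 57, 20 and 314 reads at YB, SB and MB, and tags that shared exactly 12 nt with its seed tag were 38 tags with 58, 23 and 63 reads. The most read just inside the limit were cGGGGGACGGACTG and GGGGGACGGACTG, given above, and gtGGGACGGACTGGG with 3, 1 and 8 reads. The most read just outside were cGGGGGACGGACT with 22, 5 and 6 reads, GGGGGACGGACT with 15, 4 and 1, and cggaGGACGGACTGGG with 3, 0 and 6. The forms that stop 3 bases before the end of the seed tag thus had their largest count at YB, while those that stop 2 bases before it had theirs at MB.

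Around family 2 the numbers were smaller, with 29 tags of 25, 9 and 65 reads at a shared run of 13 nt and 20 tags of 7, 4 and 17 reads at 12 nt. Just inside were GCGGCGACGTGGG, given above, GGCGACGTGGGCG with 5, 1 and 6 reads, and GCGGCGACGTGGGagg with 0, 0 and 9. Just outside were GCGGCGACGTGG with 3, 2 and 0 reads, GCGGCGACGTGGcgg with 1, 0 and 2, and gcgaCGACGTGGGCGG with 1, 0 and 1.

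Tags that differed from a leading form by 1 base were rare, with intervals that overlapped between the libraries. Per 1000 reads of the C-start 16 nt tag of family 1 and its 1-base variants, the variants held 23.9 at YB (16.6 to 33.2), 28.9 at SB (20.9 to 38.8) and 20.4 in MB (18.3 to 22.7). For the seed tag of family 1 they held 15.1 (10.9 to 20.3), 15.6 (10.7 to 21.8) and 18.4 (16.1 to 21.0). For the seed tag of family 2 they held 22.8 (13.8 to 35.4), 10.8 (3.97 to 23.3) and 20.3 (16.4 to 24.8), and for its C-start 17 nt tag 19.2, 12.05 and 21.8. No change stood out among them. At MB the most read variants were C1T of the C-start 16 nt tag with 24 reads and A6G of the seed tag of family 1 with 25 reads, counting positions from the 5′ end of the form. Some variants also meet the 13 nt rule and were counted as members.

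Family members filled the top of the MB list. Of its 10 most read tags 9 were members, against 4 of 10 at YB and 4 of 10 at SB. Family 1 held 74.3% of the 15 nt reads at MB, against 39.4% at YB and 35.3% at SB, and 58.8% of the 16 nt reads, against 15.8% and 16.9%. Family 2 held 15.9% of the 16 nt reads at MB, against 7.82% at YB and 5.83% at SB.

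The length profile of the MB list stood less apart once these members were left out. Tags of 16 nt held 27.2%, 29.2% and 38.0% of all reads in YB, SB and MB, and 25.0%, 27.1% and 22.5% once both families were left out. The order of MB among the libraries thus turned at this length. The total variation distance between length profiles, which is the part of the reads placed differently, was 13.8% between MB and SB and 17.04% between MB and YB with the families, and 9.25% and 5.85% without them. Between YB and SB it was 3.74% and 4.41%.

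Base composition changed in the same way when the families were left out. G and C made up 81.1%, 81.0% and 81.6% of the bases of family reads in YB, SB and MB. In all reads they made up 54.5%, 55.4% and 70.5%, and outside the families 49.2%, 50.4% and 56.2%. MB was thus the most GC-rich list even without the families, by a smaller margin. The part of GC content in the result was not tested.

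The members were set beside all distinct tags that held at least 10 reads in a pair of libraries. For MB against SB, 678 tags reached that count and 22.4% of them had a share at least 2 times as high at MB, while 34.5% had a share at least 2 times lower. Of family 1, 21 members reached the count, 12 were at least 2 times higher and 0 lower, and of family 2, 13 reached it, 8 were higher and 0 lower. The median ratio was 2.45 for the members of family 1 and 2.43 for those of family 2, against 0.973 for the tags outside. Members that are high at MB reached the count through MB itself, and the families were chosen for this contrast, so nothing is read from these counts.

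Over the reads outside both families, 50.1% of all tags were at least 2 times higher at MB than at SB, with 21 of 21 members of family 1 and 12 of 13 of family 2. For MB against YB, 34.9% of 710 tags were at least 2 times higher and 38% lower over all listed reads, and 13 of 23 members of family 1 and 8 of 14 of family 2 were higher. The member of family 2 that was lower was its G-start 13 nt tag, at 0.349 (0.124 to 0.929). Over the reads outside both families 54.5% of tags were at least 2 times higher at MB than at YB, with 23 of 23 members of family 1 and 11 of 14 of family 2. The shares of all tags called were thus much larger on this denominator. These comparisons share the MB library.

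The families were not chosen for the contrast of YB with SB, although SB counts chose the seed tags. In it, 19.8% of 615 tags were at least 2 times higher at YB and 22% lower. Of 11 members of family 1 that reached the count, 1 was higher and 1 lower. The lower was the C-start 15 nt tag, with a YB/SB ratio of 0.452 (0.347 to 0.584), and the higher was the C-start 14 nt tag at 3.34 (1.33 to 9.99). Of 11 members of family 2, 2 were higher and 1 lower. The lower was its G-start 14 nt tag at 0.334 (0.166 to 0.637), and the higher ones were its G-start 17 nt tag at 2.06 (1.10 to 4.04) and its G-start 13 nt tag at 3.34 (0.901 to 18.4). The median YB/SB ratio was 1.20 for the members of family 1 and 1.23 for those of family 2, against 0.911 for the tags outside. Members thus lay on both sides of equality between the younger libraries.

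The families had little sequence in common. The longest run shared by the stretches that their forms cover was 4 nt on the same strand and 4 nt on opposite strands. Against the 96 distinct mature sequences among 161 entries for known miRNAs of V. vinifera (VvmiRNAs) and their star strands in a supplementary list, the longest shared run was 6 nt for family 1 and 5 nt for family 2 on the same strand, and 7 nt for either on the opposite strand. Among the members, 0 matched a listed VvmiRNA from its first base on. The predicted miRNAs that the study added to the known ones were not compared here. Tags holding 13 nt of the reverse complement of a seed tag numbered 0 for family 1 and 1, with 1 read, for family 2. The rule counts 1 orientation only, so these numbers do not give the strand of origin. No genome was searched, and the transcripts or loci that the tags came from were not determined.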

How the data were processed

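The families, their rule and the lists compared were chosen with earlier results of these data known. The authors deposited a read count for each distinct sequence, after adapter trimming and collapsing of identical reads, with no normalization, and software for this step is not given in the sources used here. The labels name Illumina and degradome sequencing, while the methods name small RNA libraries, another platform and adapters with molecular identifiers. Which of these made the deposited reads is not settled. Whether the deposited counts use the identifiers is not stated. The lists hold tags of 3 to 17 nt, below the length filter of the methods, so their totals are not library depths.

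Groups were taken from the labels (YB, SB and MB at 5, 45 and 90 DAF, 1 library each). Shares of the listed reads were computed with Clopper-Pearson 95% intervals, and ratios of shares with conditional exact intervals, both of which cover counting error only. A count of 3 reads was used as the floor in ratios, which is 0.00754%, 0.00903% and 0.00395% of the YB, SB and MB reads. No test between stages was made. The named tags were the seed tags, the 10 most read of each family, the most read in each library, the 3 with the largest and smallest MB/SB ratio among tags with at least 50 reads, and up to 3 tags on either side of the 13 nt limit. Clean reads were 11456656 at SB as stated and 10100812 at YB and 10688392 at MB as implied by the scaled values of supplementary tables (98 and 92 lines). These totals exclude tags of the lengths listed here, so they serve as a scale only. Counts were processed with Python 3.11.15, pandas 2.3.3 and scipy 1.17.1, and the alternative scalings with edgeR 4.0.16 and DESeq2 1.42.0 in R 4.3.3. The counting of families was rerun with the members found here planted among random tags, which checks the code and not the families. Alternatives were a shared run of 12 or 14 nt, seed tags from the other libraries, other denominators, scalings, length and count filters.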

Additional observations from a re-analysis of the deposited data

How the results depend on the processing

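Leaving out a replicate was not possible with 1 library per stage, and no paired analysis was possible because each stage has 1 library. The YB/SB ratio of family 1 moved across equality with the scaling; no other ratio did. MB was above SB and YB in both families under every alternative. A shared run of 12 nt left all shares and ratios within counting error. The rule returned the same seed tags from the YB and MB lists, so taking them from there could change nothing and is no check. A shared run of 14 nt gave family 1 45.8% at MB. Reads of 14 nt or longer gave it 14.3% at YB, 14.4% at SB, 47.3% at MB and an MB/YB ratio of 3.32, and gave family 2 11.1% at MB.

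The total used mattered most. Over the reads outside both families, MB/SB and MB/YB were 6.59 and 6.67 for family 1 and 7.25 and 5.99 for family 2. Over clean reads, MB/SB, MB/YB and YB/SB were 8.29, 6.21 and 1.33 for family 1 and 9.13, 5.57 and 1.64 for family 2. With TMM totals, family 1 had 3.58, 3.09 and 1.16, and family 2 had 2.77 for MB/YB and 1.42 for YB/SB. With DESeq2 size factors, family 1 had 4.42, 3.31 and 1.33, and family 2 had 4.87 for MB/SB and 1.64 for YB/SB.

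Filters on low counts shrink the denominator. With tags of at least 2 reads in a library, family 1 held 20.5% (YB), 21.7% (SB) and 55.8% (MB), with ratios MB/SB, MB/YB and YB/SB of 2.57, 2.72 and 0.944. Family 2 held 5.35%, 4.61% and 13.1%, with MB/SB and MB/YB of 2.85 and 2.45. With tags of at least 10 reads summed, family 1 held 25.3%, 26.8% and 61.4%, with ratios of 2.29, 2.43 and 0.943, and family 2 held 6.58%, 5.68% and 14.4%, with 2.53 and 2.18.

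Leaving out the seed tags and counting 1-base variants were chosen after seeing the data. Without the seed tags, family 1 held 7.19%, 8.03% and 39.2%, with ratios of 4.88, 5.45 and 0.895, and family 2 held 1.63%, 1.38% and 6.43%, with 4.65 and 3.94. Counting 1-base variants with the families gave family 1 46.7% at MB.

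The starts were also recomputed on other sets. Without its most read tag, which is the C-start 16 nt form, 20.2% of the remaining family 1 reads at MB began with the C. Of the remaining reads at YB and SB, 84.5% and 80.8% began at the seed tag's start. Because the G-start partner was kept, a G majority at MB followed from leaving out this tag. It does not show which forms carry the change of the main start. With distinct tags counted once, the main start held 39.8% to 51.5% of the tags of a family. Tags longer than 17 nt were not analysed here, which limits the 3′ ends that could be seen.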
